A study of Mus musculus with 2 samples.

Results

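The BCL2 family cell death genes described here are 10 named mouse genes, Mcl1, Bcl2l1, Bcl2, Bax, Bak1, Bok, Bad, Bcl2l11, Bbc3 and Bid, matched by symbol and gene identifier among 55536 mouse gene rows. All 10 were found. Total RNA-seq had been made from heart tissue of 2 adult male B6CASTF1/J mice, hybrids of a C57BL/6J and a Mus musculus castaneus parent, aged 8 to 10 months. Each animal gave 1 library from 300 ng of RNA, built after ribosomal RNA reduction with a kit that keeps strand and with ERCC spike-in RNA, per the labels. Replicate 1 is the animal numbered 2 and replicate 2 the animal numbered 4, and both carry the same donor entry in the labels. There is no treatment, mutant or second tissue, so the comparisons are between members and between the 2 animals.

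BCL2 family proteins meet on the outer mitochondrial membrane. The effectors BAX and BAK open pores in it, which lets cytochrome c out and starts caspase activation, whereas prosurvival proteins such as MCL1, BCL-XL and BCL2 hold the effectors and the BH3-only proteins in check. The BH3-only proteins are the sensors of the pathway: they bind the groove of prosurvival proteins through a short helix, the BH3 domain, and some of them also activate the effectors directly. In heart muscle, loss of MCL1 in mice is known to cause fast heart failure, and BCL2 family members are known for their part in cell loss after ischaemia.

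The feature that all of these proteins have in common is the BH3 helix, and its coding sequence is shown so that the members can be compared at it. The BH3 core was searched for in the translated coding sequence of each transcript as a leucine codon, any 2 codons, a codon for a small or aliphatic residue (alanine, valine, isoleucine, leucine or methionine), a codon for glycine, alanine or serine, and an aspartate codon. The transcript shown is the one with the most TPM, a level per transcript length that sums to the same total in each library, among the protein-coding models of the gene that hold the core. The 18 bases of the core are in capitals, with the neighbouring coding bases in lower case, 5′ to 3′ on the coding strand, from the GENCODE M21 transcripts (mm10). These are reference sequences, and those of the castaneus copies in these hybrids were not examined. Prosurvival members come first, then effectors, then BH3-only members.
Mcl1 (Mcl1-201, chr3:95659424-95659468, plus strand): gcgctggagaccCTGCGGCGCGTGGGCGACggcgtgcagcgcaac
Bcl2l1 (Bcl2l1-202, chr2:152829691-152829735, minus strand): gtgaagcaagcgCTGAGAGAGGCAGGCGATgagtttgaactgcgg
Bcl2 (Bcl2-201, chr1:106712569-106712613, minus strand): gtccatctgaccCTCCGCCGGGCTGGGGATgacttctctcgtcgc
Bax (Bax-201, chr7:45465991-45466035, minus strand): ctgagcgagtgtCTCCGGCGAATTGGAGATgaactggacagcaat
Bak1 (Bak1-202, chr17:27022525-27022569, minus strand): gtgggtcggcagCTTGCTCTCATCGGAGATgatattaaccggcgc
Bok (Bok-201, chr1:93686645-93689176, plus strand, across 2 exons): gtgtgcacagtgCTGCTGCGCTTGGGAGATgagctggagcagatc
Bad (Bad-202, chr19:6950780-6950824, plus strand): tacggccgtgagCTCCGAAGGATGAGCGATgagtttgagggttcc
Bcl2l11 (Bcl2l11-205, chr2:128147138-128147182, plus strand): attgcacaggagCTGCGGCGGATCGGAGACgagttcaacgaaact
Bbc3 (Bbc3-201, chr7:16313761-16313805, plus strand): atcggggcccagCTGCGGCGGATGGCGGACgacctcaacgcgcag
Bid (Bid-201, chr6:120897283-120897327, minus strand): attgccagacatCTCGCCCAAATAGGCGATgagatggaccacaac

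Each of the 10 transcripts held exactly 1 match to the BH3 core. The search read the coding strand in frame. The same pattern was found in 2924 of 21866 protein-coding genes, or 13.4%, so a match by itself does not mark a gene as a family member. The 10 cores were all different: over the 45 pairs of members, between 7 and 15 of the 18 bases were identical, with a median of 11. The search pattern itself sets some of these bases, as in the leucine and aspartate codons. No comparison with the other matching genes was made. The closest pair was Bcl2l11 with Bbc3, and the most distant was Bcl2l1 with Bak1. The codon before the aspartate encoded glycine in 8 members and another residue in 2, Bad and Bbc3. The place of the core in the protein set the BH3-only members apart from the other members in the annotation. Between 124 and 138 residues followed it in the 3 prosurvival and 3 effector members, against 100 in Bid, 48 in Bad, 47 in Bbc3 and 41 in Bcl2l11.

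The libraries held 42047285 and 39979856 expected counts on mouse genes in replicates 1 and 2, 99.8% of all counts in each. They were not 1 library deposited under 2 names: over 17075 genes with at least 10 summed counts their counts differed by a chi-square of 15.4 per degree of freedom. The 5 heart muscle markers (Myh6, Tnnt2, Actc1, Myl2 and Ryr2) summed to 22183 TPM in replicate 1 and 24254 TPM in replicate 2. In bulk tissue, fewer cells of a type and less RNA per cell cannot be told apart. Intervals below are exact intervals for counting error only.

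Among the members, the prosurvival Mcl1 was the highest and the BH3-only Bid the lowest. Of the 10 members, 9 reached 1 TPM in both libraries, against a background of 48.9% of 22015 nuclear protein-coding genes, and Bid was the exception. Among the 10755 protein-coding genes that reached 1 TPM in both libraries, the median was 8.18 TPM in replicate 1 and 8.30 TPM in replicate 2. The median of all 10 members was 3.87 TPM in replicate 1 and 4.84 TPM in replicate 2. The sets are unlike, since the member median includes Bid, which did not reach 1 TPM. By mean TPM, Mcl1, Bcl2l1 and Bax lay above that median of expressed genes, Bax by less than the libraries differed, since its 8.22 TPM in replicate 2 was below the median there.

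**Figure D1:**
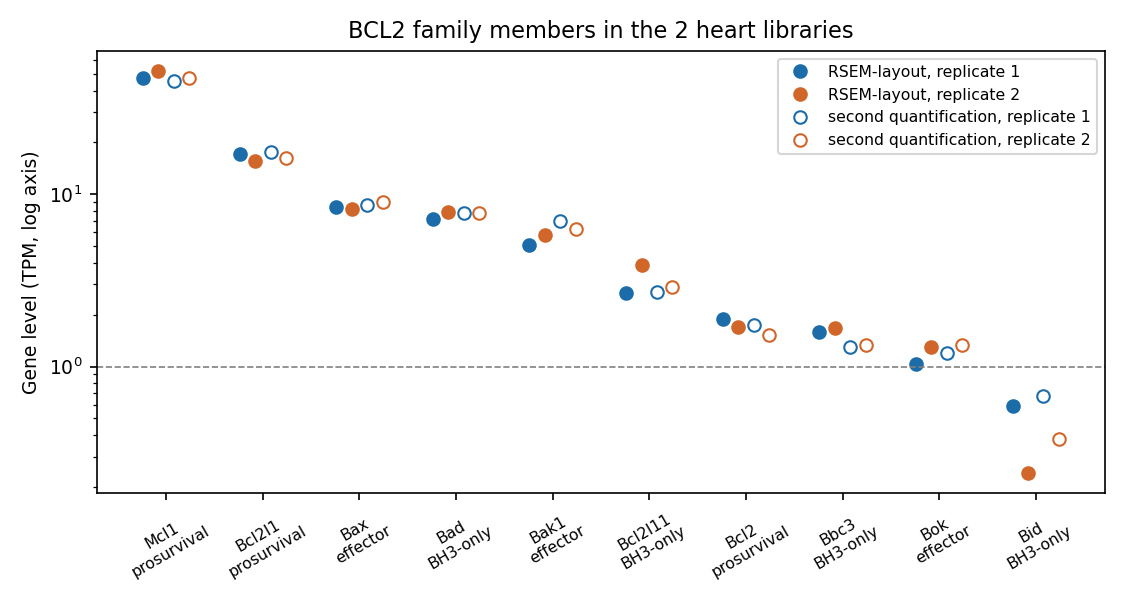
Gene level of each member in TPM (log axis) in replicate 1 (blue) and replicate 2 (orange), from the first quantification (filled, RSEM-layout tables) and the second quantification (open), with a dashed line at 1 TPM. Mcl1 sits at 47.2 and 52.0 TPM in the first quantification, Bid is the member below 1 TPM in both libraries, and the order of the mean levels is the same in both quantifications.

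The prosurvival Mcl1, which encodes a short-lived protein that binds BAK and several BH3-only proteins, had 47.2 TPM in replicate 1 and 52.0 TPM in replicate 2, from 5328 and 5258 counts. It ranked 1021st of the nuclear protein-coding genes by mean TPM, at percentile 95.4. Bcl2l1, the gene of BCL-XL, had 17.1 TPM in replicate 1 and 15.6 TPM in replicate 2, from 1272 and 1123 counts. Mcl1 was 2.76-fold above Bcl2l1 in replicate 1 and 3.34-fold in replicate 2, so the 2 genes did not overlap.

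Bcl2, the founding member, first known from translocations in follicular lymphoma, had 1.88 TPM in replicate 1 and 1.69 TPM in replicate 2, from 430 and 376 counts. Per length, Mcl1 was 25.1-fold above Bcl2 in replicate 1 and 30.8-fold in replicate 2. Bcl2l1 was 9.10-fold above Bcl2 in replicate 1 and 9.21-fold in replicate 2. Bcl2 was thus the lowest of the 3 prosurvival members in both libraries, and in TPM over all transcripts it also lay below Bax and Bak1. On protein-coding transcripts alone the order of Bcl2 and Bak1 turned in replicate 2: Bcl2 had 1.89 TPM in replicate 1 and 1.69 TPM in replicate 2, and Bak1 1.93 TPM and 0.64 TPM. By reads it stood elsewhere: Bcl2 was number 3 of the 10 members by expected counts and number 7 by TPM, while Bax was number 3 by TPM and number 7 by counts. The mean effective length behind these ranks was 6673 bases for Bcl2 and 776 bases for Bax.

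Of the effectors, Bax had 8.47 TPM in replicate 1 and 8.22 TPM in replicate 2, from 227 and 211 counts. Bak1, its partner in pore formation, had 5.08 TPM in replicate 1 and 5.78 TPM in replicate 2, from 343 and 340 counts. Bok, a relative whose activity is less well understood and which prosurvival proteins restrain little, had 1.03 TPM in replicate 1 and 1.29 TPM in replicate 2, from 49 and 58 counts. Bax was above Bak1 in both libraries, by 1.67-fold in replicate 1 and 1.42-fold in replicate 2. Bok was below both, and Bax exceeded it by 8.22-fold in replicate 1 and 6.37-fold in replicate 2. Bak1 shares 437 bases, 18.2% of its exon sequence, with a Ggnbp1 model on the opposite strand that had 253 and 255 counts. A second Ggnbp1 model, with 154 and 70.3 counts, shares 177 bases, or 7.35%. The part of these overlaps in the Bak1 values was not tested. Of the Bax sequence, 11.1% of its 31-base words also occur in other genes, most of them in Gm45808, a gene model on the same strand that shares 192 bases of exon with Bax and had 31.4 and 44.7 counts, so reads of that stretch are uncertain.

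Of the BH3-only members, Bad, a sensitizer whose protein is controlled by phosphorylation through growth factor signalling, had 7.15 TPM in replicate 1 and 7.89 TPM in replicate 2, from 225 and 244 counts. Bcl2l11, the gene of BIM, an activator that binds every prosurvival protein, had 2.66 TPM in replicate 1 and 3.90 TPM in replicate 2, from 298 and 425 counts. Bbc3, the gene of PUMA and a target of p53, had 1.59 TPM in replicate 1 and 1.68 TPM in replicate 2, from 56 and 66 counts. Bad was the highest BH3-only member in both libraries, and its range did not overlap that of Bcl2l11. However, Bad shares 524 bases, 20.5% of its exon sequence, with exons of Gpr137 on the opposite strand, a gene with 686 and 804 counts. The part of this overlap in the Bad values was not tested. Bid, which links death receptors to the mitochondria when caspase 8 cleaves its protein, had 0.59 TPM in replicate 1 and 0.24 TPM in replicate 2, from 44 and 17 counts. Bid was the sole member whose counts differed more than 2-fold in either direction, and it was also the one with the fewest reads.

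Ordered by mean TPM, the members ran Mcl1, Bcl2l1, Bax, Bad, Bak1, Bcl2l11, Bcl2, Bbc3, Bok and Bid. In all 9 neighbouring pairs the lower library of the higher gene was above the higher library of the lower gene, which with 2 libraries is a description and no test. The margin was small for some pairs. Bcl2 did not go below 1.69 TPM and Bbc3 did not exceed 1.68 TPM, and Bax did not go below 8.22 TPM while Bad did not exceed 7.89 TPM. The second quantification of the same reads gave the same order, and in it 8 of the 9 pairs were separate. The pair that overlapped there was Bbc3, with 1.30 TPM in replicate 1 and 1.34 TPM in replicate 2, and Bok, with 1.202 TPM in replicate 1 and 1.325 TPM in replicate 2. The ratio of the first to the second quantification lay between 0.789 for Bid and 1.24 for Bbc3 over the 10 members.

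Summed over roles, the prosurvival members held most of the TPM of the 10 genes, and Mcl1 held most of the prosurvival sum. The 3 prosurvival members summed to 66.2 TPM in replicate 1 and 69.3 TPM in replicate 2. Mcl1 made up 71.3% of that sum in replicate 1 and 75.1% in replicate 2. The 3 effectors summed to 14.6 TPM in replicate 1 and 15.3 TPM in replicate 2. The 4 BH3-only members summed to 11.99 TPM in replicate 1 and 13.7 TPM in replicate 2, with Bad at 59.6% and 57.5% of it. In TPM the effector sum was above the BH3-only sum in both libraries, but this order turned under other settings. On protein-coding transcripts alone the effectors summed to 11.09 TPM in replicate 1 and 9.83 TPM in replicate 2, and the BH3-only members to 11.16 TPM and 12.8 TPM. In expected counts with no length correction the effectors had 619 and 609 counts, and the BH3-only members 623 and 752 counts. The prosurvival sum was the highest of the 3 under all of these settings.

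The prosurvival sum was 4.54-fold the effector sum in replicate 1 and 4.53-fold in replicate 2, a log2 ratio of 2.18 ± 0.0026 (SD, n = 2). It was 5.52-fold the BH3-only sum in replicate 1 and 5.05-fold in replicate 2, a log2 ratio of 2.40 ± 0.091 (SD, n = 2). In the second quantification these log2 ratios were 1.96 and 2.38. Within these members both rest on Mcl1, which was left out as an alternative chosen after the values were seen. Without it, the other 2 prosurvival members summed to 1.30-fold the effectors in replicate 1 and 1.13-fold in replicate 2. Against the BH3-only members they summed to 1.58-fold and 1.26-fold. These are ratios of RNA, and say nothing of the ratio of proteins. Bcl2l2, a prosurvival gene that is not among the members, is in none of these sums. It had 18.3 TPM in replicate 1 and 19.2 TPM in replicate 2.

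**Figure D2:**
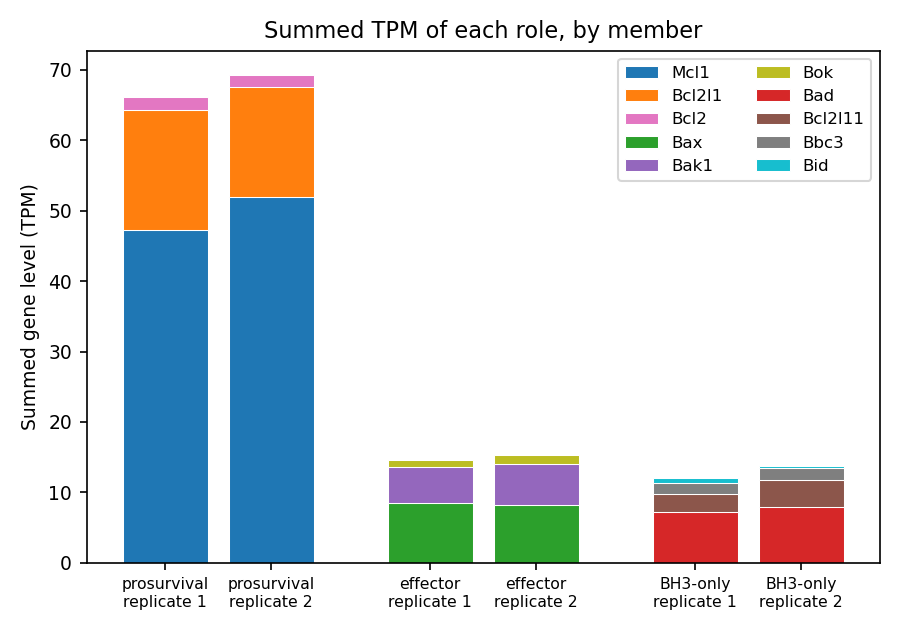
Summed gene level (TPM, bars from 0) of the prosurvival, effector and BH3-only members in each library, each bar divided by member. Mcl1 fills 71.3% and 75.1% of the prosurvival bars, and the effector and BH3-only bars all stay below 16 TPM.

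The transcript models of the members showed to which forms the RNA of a gene was assigned. The share on protein-coding transcripts is not the share with the BH3 core, since some coding models lack the core and some others hold it. The annotation gives the 10 genes 54 transcripts, 41 typed as protein-coding and 13 of another type. In both quantifications the same transcript led in 9 of 10 members, and in 5 of 10 the leading transcript held over 50% of the gene in every library of both. In the first quantification the share of TPM on protein-coding transcripts had a median over members of 96.9% in replicate 1 and 98.1% in replicate 2. It was over 90% in both libraries for 6 members. The other 4 were Bcl2l11 (88.8% and 86.2%), Bbc3 (82.5% and 78.8%), Bid (81.5% and 82.2%) and Bak1. Which members fell below 90% depended on the quantification. In the second, Bbc3 had 100% in replicate 1 and 90.5% in replicate 2, Bcl2l1 94.5% and 84.9%, and Bid 90.6% and 44.1%.

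Bak1 had the lowest share of all members in each library of both quantifications. It stood far apart in the first quantification, but in replicate 2 of the second Bid came near it, at 44.1%. The share of Bak1 on protein-coding transcripts was 38.0% in replicate 1 and 11.1% in replicate 2, and 52.5% and 35.0% in the second quantification. The model Bak1-204, annotated as a target of nonsense-mediated decay, led with 62.0% of the gene in replicate 1 and 73.6% in replicate 2, and in the second quantification with 47.5% and 65.0%. It was the leading model in all 4 measurements. The full-length model Bak1-202, which encodes 209 residues and is named here after its values were seen, had 32.7% in replicate 1 and 3.27% in replicate 2, and in the second quantification 9.90% and 4.76%. Bak1-203, which encodes 146 residues, had 5.31% and 7.78%, but 42.6% and 30.2% in the second quantification. How reads were divided between the coding models was thus not stable. Bak1-201, also named after its values were seen, is annotated as a target of nonsense-mediated decay, but its coding sequence holds the core. It had 0% in replicate 1 and 15.3% in replicate 2, and 0% and 0.00094% in the second quantification. The deposited interval for read assignment, whose level the files do not give, ran for Bak1-202 between 0.0875 and 2.01 TPM in replicate 1 and did not exceed 1.02 TPM in replicate 2, so the intervals of the 2 libraries overlapped. For Bak1-204 it ran between 1.93 and 4.27 TPM in replicate 1 and between 2.92 and 5.08 TPM in replicate 2.

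Between their first and last exons, Bak1-204 and Bak1-202 differ by 5 bases at the start of the third exon, a coding exon in both (chr17:27022873-27022877, minus strand, mm10). The 2 junctions are shown, with 20 bases on each side, because they are the coding difference between the leading model and the full-length one. The capitals are the 5 bases that Bak1-202 has and Bak1-204 lacks.
Bak1-204: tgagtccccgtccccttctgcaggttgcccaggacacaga
Bak1-202: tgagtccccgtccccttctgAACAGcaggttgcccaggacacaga
With these bases absent the annotated coding sequence of Bak1-204 ends after 79 residues and holds no BH3 core, in contrast to that of Bak1-202, whose core is printed above. The models also differ in the length of the first exon, 177 bases in Bak1-204 against 599 bases in Bak1-202. Which of these differences divided the reads was not tested. Bak1 shares exon bases on the opposite strand with 2 gene models named Ggnbp1, over 437 and 177 bases, and whether the counting used strand is not given in the sources used here. Without strand, reads of such overlaps cannot be told apart.

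For Bcl2l1, the leading transcript differed between the quantifications. Bcl2l1-202 led in the first quantification with 51.7% in replicate 1 and 43.9% in replicate 2, and Bcl2l1-201 led in the second with 42.97% and 45.8%. Both encode the same protein of 233 residues, the length of BCL-XL. Together they held 77.7% of the gene in replicate 1 and 82.5% in replicate 2, and 67.2% and 61.4% in the second quantification. The choice between these models therefore did not change which protein the leading transcript encodes.

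For Bcl2l11, Bcl2l11-205 led with 56.4% in replicate 1 and 60.5% in replicate 2. It encodes 196 residues, the form known as BIM-EL. Bcl2l11-204, with 110 residues, the length of BIM-S, followed with 23.8% and 21.6%, from 12.6 and 15.9 counts, so its share has little precision. In the second quantification Bcl2l11-204 held 28.8% in replicate 1 and 15.3% in replicate 2, and Bcl2l11-205 held 49.3% and 67.2%. Both models hold the BH3 core. For Mcl1, Mcl1-201 with 331 residues held 97.0% in replicate 1 and 90.7% in replicate 2, and the rest was on Mcl1-202 with 285 residues. Both of these also hold the core.

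For Bcl2, Bcl2-201 with 236 residues held 88.0% in replicate 1 and 92.8% in replicate 2. For Bax, Bax-201 with 192 residues, the full-length form, held 73.7% and 84.3%, and Bax-203, an incomplete model of 172 residues, 10.4% and 11.8%. For Bad, Bad-202 with 162 residues held 65.9% and 63.6%, Bad-201 with 204 residues 14.4% and 18.6%, and Bad-205, an incomplete model, 17.3% and 10.3%. The share of Bad-205 was not stable, at 0% and 4.46% in the second quantification. These 3 genes had the same leading model in both quantifications, over 50% in each library. For Bbc3, Bbc3-201, which has the core, held 41.95% and 54.9%, and Bbc3-202, an incomplete model without the core, 40.6% and 23.9%, while Bbc3-203, a retained intron model, held 17.5% and 21.2%. In the second quantification the share of Bbc3-201 was 67.8% and 66.8%, and that of Bbc3-203 was 0% and 9.47%. Bok-201 held the whole of Bok in both libraries of the first quantification. Bid-201 held 81.5% and 82.2% of Bid, and the rest was on Bid-204, a model annotated as a target of nonsense-mediated decay. Bid-204 has the same annotated coding sequence of 195 residues as Bid-201, so both hold the core. With 44 and 17 counts behind them, the shares of Bid have little precision: in the second quantification Bid-201 held 70.8% and 44.1%, and Bid-205, a retained intron model, 0% and 43.6%.

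**Figure D3:**
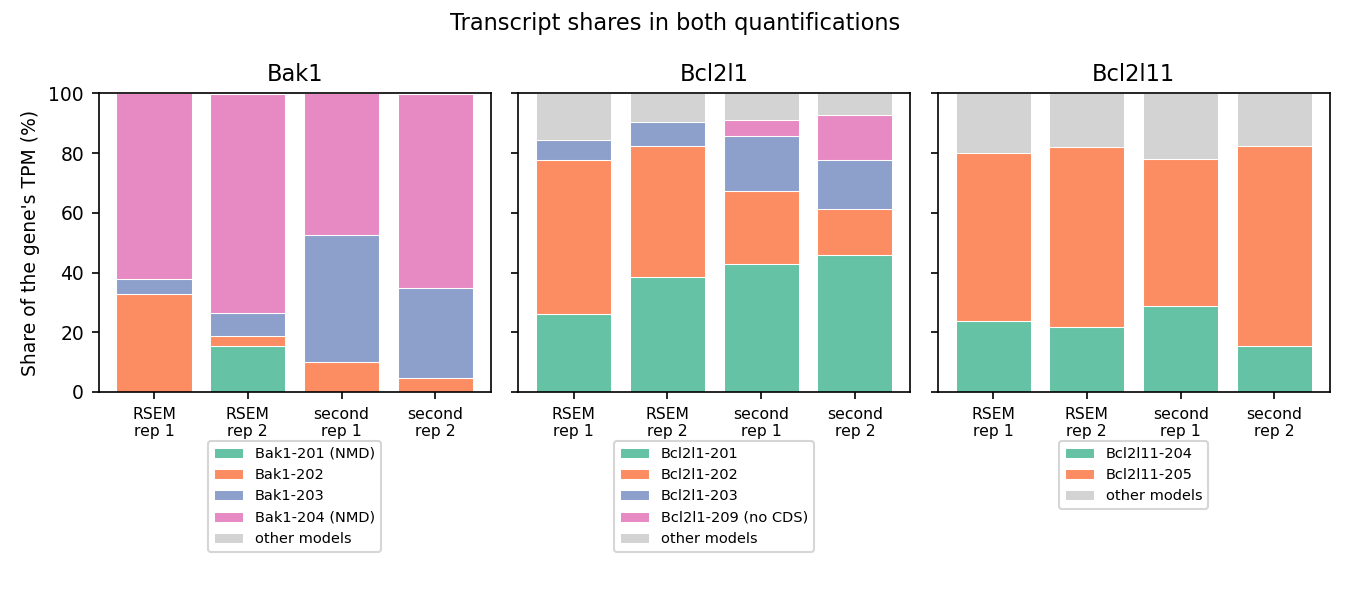
Share of the TPM of Bak1, Bcl2l1 and Bcl2l11 (percent, stacked to the whole gene) on each transcript model that held at least 10% in some library, in replicates 1 and 2 of both quantifications, with the other models in grey; NMD marks models annotated as targets of nonsense-mediated decay. Bak1-204 is the largest part of Bak1 in all 4 bars, whereas the leading model of Bcl2l1 changes between the quantifications.

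Between the 2 animals, no member was called different. A gene was called when its scaled counts differed by at least 2-fold in either direction, the exact interval of the ratio, at an error rate of 0.001, excluded 1 and the summed counts were at least 200. Of the 10 members 7 had enough counts, and 0 of these were called, against a background of 1.08% of 10960 genes. At 1.5-fold 0 of the 7 were called (background 3.53%), and with no minimum of counts 0 of the 10 (background 1.99% of 23657 genes). The 3 with fewer counts were Bbc3, Bok and Bid. With 1 library per animal and 1 group, no p-value was computed, and the interval covers the reads of these libraries. The median absolute log2 ratio of the 7 members was 0.13, beside 0.11 over the 10960 genes.

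The best-measured member, Mcl1, had a ratio of replicate 1 over replicate 2 of 0.976 (interval 0.916 to 1.04). Bcl2l1 had 1.09 (0.953 to 1.25) and Bcl2 1.10 (0.872 to 1.39). Bax had 1.04 (0.753 to 1.43), Bak1 0.972 (0.753 to 1.25) and Bad 0.889 (0.652 to 1.21). Of the members with fewer reads, Bbc3 had 0.818 (0.439 to 1.51) and Bok 0.814 (0.418 to 1.57). Each of these intervals includes 1, so a difference beyond counting error was not detectable at this depth. The limits cover counting error only, and do not state the size of a difference between animals that could be missed.

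Bcl2l11 was the member whose interval excluded 1. Its ratio was 0.676 (0.524 to 0.868), with 298 counts in replicate 1 and 425 in replicate 2. Such an interval is common among all genes, at 18.1% of the 10960 tested, so 1 of 7 members is near the background. Among the 2198 genes with 500 to 1000 summed counts, 15 genes or 0.682% had a ratio as low as that of Bcl2l11 or lower. The gene, the range and the direction were all picked after the values were seen, so this share is a description and no test. The leading model Bcl2l11-205 had 1.5 TPM in replicate 1 and 2.36 TPM in replicate 2, and the deposited intervals for read assignment, 1.21 to 1.61 TPM and 1.99 to 2.50 TPM, did not overlap. In the second quantification the gap was narrower in TPM, 2.70 in replicate 1 and 2.91 in replicate 2, while its count ratio was 0.723 (0.565 to 0.924). Of the 4 mural markers, 2 were lower in replicate 1 as Bcl2l11 was, Kcnj8 with a ratio of 0.672 (0.549 to 0.822) and Pdgfrb with 0.737 (0.656 to 0.828). Acta2 had 1.25 (1.09 to 1.43) and Rgs5 1.02 (0.984 to 1.07). The 4 summed to 148 TPM in replicate 1 and 146 TPM in replicate 2, most of it from Rgs5 at 107 and 105 TPM. The 5 heart muscle markers were all lower in replicate 1, with ratios between 0.916 for Actc1 and 0.952 for Ryr2. Fibroblast markers summed to 165 TPM in replicate 1 and 176 TPM in replicate 2, and endothelial markers to 130 TPM and 129 TPM. The fibroblast markers were split, with Dcn at a ratio of 0.876 and Pdgfra at 0.882, against Col1a1 at 1.03 and Col3a1 at 1.19. The part of any of these cell types in the Bcl2l11 values was not tested.

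Bid had a ratio of 2.49 (0.986 to 7.23), higher in replicate 1 in both quantifications. Among the 1483 genes with 40 to 90 summed counts, 93 or 6.27% had a ratio that high or higher. Here too the gene, the range and the direction were picked after the values were seen, so the share is no test. The 4 neutrophil markers were all higher in replicate 1, at a sum of 9.61 TPM in replicate 1 and 1.43 TPM in replicate 2. The 4 lymphocyte markers summed to 1.96 TPM in replicate 1 and 0.81 TPM in replicate 2, the 3 erythroid markers to 8146 TPM and 4416 TPM, and the 4 adipocyte markers to 10.2 TPM and 2.70 TPM, each marker again higher in replicate 1. The 4 macrophage markers summed to 26.5 TPM and 25.7 TPM, and 1 of them, Adgre1, was called higher in replicate 1, with 512 counts in replicate 1 and 193 counts in replicate 2. None of these markers was at 0 in both libraries. Bid also shares 628 bases, 17.7% of its exon sequence, with exons of Bcl2l13 on the opposite strand, a gene with 3717 and 3545 counts. The part of blood cells or of the overlap in the Bid values was not tested.

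**Figure D4:**
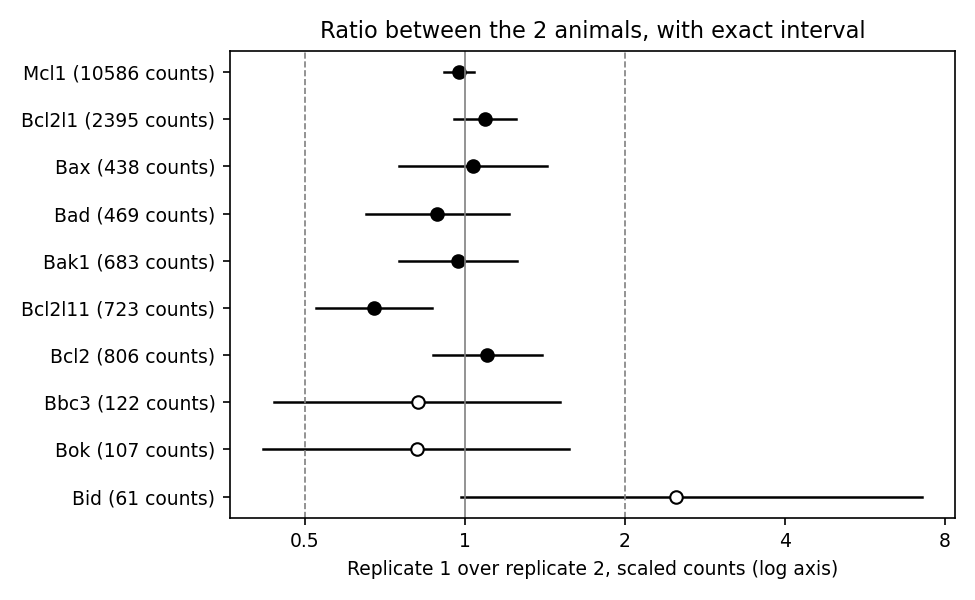
Ratio of replicate 1 over replicate 2 in scaled counts (log axis) for each member with its exact counting interval (error rate 0.001), the summed counts in brackets, filled for members with at least 200 summed counts and open for the others; the dashed lines mark 2-fold in each direction. The interval of Bcl2l11, 0.524 to 0.868, is the one that does not reach 1, and the interval of Bid is the widest.

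Further members of the family, outside the 10, included 1 more abundant prosurvival gene. Bcl2l2, the gene of BCL-W, had 18.3 TPM in replicate 1 and 19.2 TPM in replicate 2, above Bcl2l1 in both libraries. Of the 5 other prosurvival genes it alone reached 1 TPM in both libraries, and Bcl2l10 was listed at 0. The 3 Bcl2a1 paralogs, known from leukocytes, had 10.2, 25.0 and 20.7 counts for Bcl2a1a, Bcl2a1b and Bcl2a1d in replicate 1, against 3.81, 0 and 3.19 counts in replicate 2. They are near-identical copies, so the division of reads among them is uncertain, and all 3 were higher in replicate 1, as were the neutrophil and lymphocyte markers above. Their link to those markers was not tested.

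Of the 4 other BH3-only genes 1 reached 1 TPM in both libraries. Bik, a BH3-only gene whose protein sits at the endoplasmic reticulum, had 2.66 TPM in replicate 1 and 3.64 TPM in replicate 2. Bmf, whose protein is known to bind the actin motor complex, had 0.99 TPM and 1.33 TPM. Hrk had 0.08 TPM and 0.23 TPM, and Pmaip1, the gene of NOXA, 0.15 TPM and 0.05 TPM. Among the 6 atypical relatives, Bnip3 and Bnip3l, mitophagy receptors of the outer mitochondrial membrane, had 91.1 and 68.4 TPM in replicate 1 and 81.7 and 58.0 TPM in replicate 2. Both were above Mcl1 in each library. Bcl2l13 had 28.2 TPM in replicate 1 and 27.9 TPM in replicate 2, Bcl2l12 had 3.0 TPM and 5.08 TPM, and Bcl2l14 and Bcl2l15 were listed at 0.

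Downstream of the members, 15 of the 17 apoptosome and caspase genes were at 1 TPM or more in each library, and the median gene had 3.87 TPM in replicate 1 and 4.23 TPM in replicate 2. Of the 5 highest, 4 encode mitochondrial proteins. Cycs, the gene of cytochrome c, had 59.95 TPM in replicate 1 and 61.2 TPM in replicate 2. Endog, a mitochondrial nuclease, had 35.3 and 36.9 TPM, Aifm1, a flavoprotein needed for respiratory chain assembly, 30.9 and 34.3 TPM, and Diablo, an antagonist of inhibitor of apoptosis proteins, 23.98 and 24.9 TPM. Dffa, the inhibitor of the caspase-activated nuclease, had 18.2 and 19.2 TPM. The level of Cycs depended on the quantification, with a mean of 60.6 TPM in the first and 270 TPM in the second. Apaf1 and Casp9, the scaffold and the initiator caspase of the apoptosome, are named for that place and not by rank: Apaf1 had 2.57 TPM in replicate 1 and 2.05 TPM in replicate 2, and Casp9 had 3.52 TPM in replicate 1 and 3.82 TPM in replicate 2.

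In the death receptor list, 8 of 10 genes were at 1 TPM or more in each library, and the median gene had 2.83 TPM in replicate 1 and 2.67 TPM in replicate 2. Tnfrsf1a, the main TNF receptor, had 18.7 TPM in replicate 1 and 20.4 TPM in replicate 2, and Cflar, an inhibitor of caspase 8, had 19.7 and 16.6 TPM. Fas had 4.15 and 3.20 TPM, Fadd 3.20 and 4.11 TPM and Tnfsf10 2.72 and 4.09 TPM. Fasl, the ligand of Fas, was listed at 0 in both libraries.

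All 10 genes listed as regulators of BCL2 family proteins were at 1 TPM or more in each library, and the median gene had 37.1 TPM in replicate 1 and 33.7 TPM in replicate 2. Ywhae, a 14-3-3 protein of the kind that holds phosphorylated BAD in the cytosol, had 164 TPM in replicate 1 and 178 TPM in replicate 2. Vdac2, a channel of the outer membrane that binds BAK, had 163 and 171 TPM. Huwe1 and Usp9x, a ubiquitin ligase and a deubiquitinase of MCL1, had 65.1 and 66.7 TPM in replicate 1, and 72.4 and 63.6 TPM in replicate 2. Ywhaz, a second 14-3-3 gene, had 48.1 and 43.9 TPM. Of the genes in these 6 lists with at least 200 summed counts, 0 were called different between the animals, beside the background of 1.08%.

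**Figure D5:**
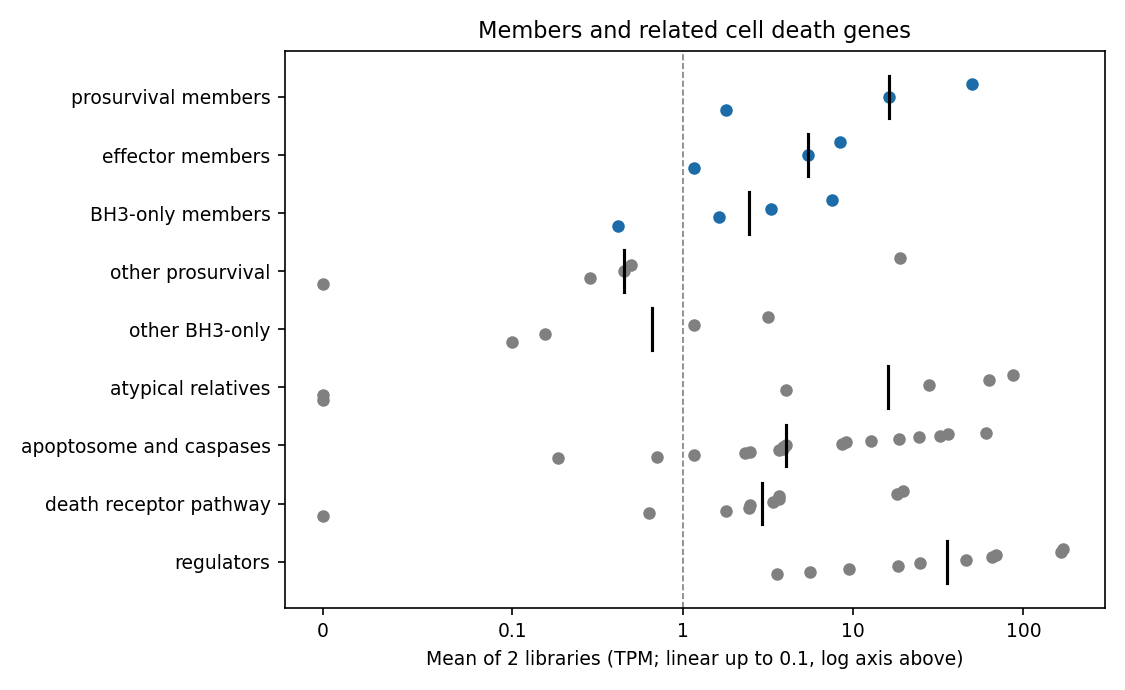
Mean of the 2 libraries in TPM (linear up to 0.1, log axis above) for each member (blue) and each gene of the related lists (grey), with a black line at the median of the list and a dashed line at 1 TPM. Mcl1 is the highest blue point, and Ywhae and Vdac2 are the highest points of all.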

How the data were processed

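Each library came with gene and transcript tables of expected counts and TPM deposited by the authors (first quantification, in the column layout of RSEM, with the percent of each gene on each transcript and interval bounds of TPM for read assignment), and a deposited transcript table of estimated counts and TPM (second quantification, in the column layout of kallisto), here summed per gene. Assembly mm10 and annotation GENCODE M21 are named in the deposited listings. The sources used here name no tool, version or strand setting of the counting. Expected counts were rounded and scaled by TMM (edgeR 4.0.16; DESeq2 1.42.0 size factors as an alternative), without ERCC rows. Ratios of replicate 1 over replicate 2 have exact Clopper-Pearson intervals. Genes with 0 counts were set to a floor of 3 counts in ratios. TPM was used as deposited; the authors' percent values gave the transcript shares. BH3 cores and 31-base words shared between genes were searched in the GENCODE transcripts. All 10 members were named, and up to 5 genes per list by mean TPM. Members and lists were chosen with earlier results of these data known. Replicates are separate animals by number, under 1 donor entry, and a single group allows no group test.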

Additional observations from a re-analysis of the deposited data

How the results depend on the processing

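The count of members at or above 1 TPM in both libraries, 9, was also 9 in the second quantification and with TPM rescaled over nuclear protein-coding genes, and 10 with a threshold of 0.1 TPM, but it was 5 with a threshold of 5 TPM; leaving out each replicate gave 9 to 9. The number of members called different between the animals was 0 under all 5 alternatives (DESeq2 size factors, ERCC totals, no minimum counts, 1.5-fold, second quantification); with ERCC totals the interval of Bid was 1.02 to 7.48. The log2 ratio of prosurvival over effector TPM was 2.18, and became 1.96 in the second quantification, 2.70 on protein-coding transcripts, 3.49 in expected counts with no length correction, 2.11 with a pseudocount of 1 TPM and 0.28 without Mcl1, an alternative chosen after seeing the data; leaving out each replicate gave 2.18 to 2.18. The log2 ratio of prosurvival over BH3-only TPM was 2.40, and became 2.50 on protein-coding transcripts, 3.33 in expected counts and 0.50 without Mcl1; leaving out each replicate gave 2.34 to 2.47. Every one of these kept its direction. The same leading transcript was found in 9 members, in 8 among protein-coding transcripts, and in 5 where it had to hold over 50% everywhere. The median protein-coding share, 97.5%, was 95.2% in the second quantification; leaving out each replicate gave 96.9% to 98.1%. Rescaling over nuclear protein-coding genes raised every member by 2.75 to 2.77-fold, and protein-coding transcripts alone lowered Bak1 to 0.237 of its mean TPM (its coding share was 38.0% and 11.1% in replicates 1 and 2, and 52.5% and 35.0% in the second quantification), the other 9 members changing by less than 1.5-fold. No paired analysis was possible because there is a single group. Depth limits Bid, Bok and Bbc3 most.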
